A study of Mus musculus with 16 samples.

Results

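Type I interferon-stimulated genes are the genes that cells switch on when the interferons alpha and beta reach their common receptor. A fixed list of 31 mouse symbols was taken from the 27179 genes of the deposited table by matching Entrez identifiers to symbols, and all 31 were found. The rule uses no measured value, but the list was drawn up with earlier results of these data known. A filter on low counts kept 16017 genes, all 31 members among them.

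RNA was measured in 15 mouse mammary tumors, 3 in each of 5 groups. The labels number the tumors of a group and do not give the animal of each. The triple group was given IPW-5371 daily at 20 mg/kg, which blocks TGFβ signaling, a single focal dose of 10 Gy (RT), and anti-PD-L1, an antibody against a checkpoint ligand given weekly at 10 mg/kg. The dual group received IPW-5371 and RT, the RT group radiation alone and the IPW-5371 group the inhibitor with a control treatment, while the Sham group received a control IgG antibody. All 5 groups shared the same tumor and host. The tumors were transplants of 1 Trp53 null mammary tumor family, family F, in BALB/cJ females aged 8 to 10 weeks, treated from a volume of 65 to 100 mm3 and collected on day 7, so the results describe 1 tumor family and 1 time point. Trp53 transcripts were counted in every tumor at 63.9 to 109.5 CPM (counts scaled to library size and TMM factor), a gene-level count that does not check the deletion. The epithelial genes Epcam and Krt5 were counted throughout, at 110.2 to 203 CPM and 347 to 1117 CPM. Total counts were 11002869 to 17184023 per tumor. The library names carry the code A2301 for all dual, IPW-5371 and Sham tumors and for triple replicate 1, and A2304 for all RT tumors and triple replicates 2 and 3, and the labels do not say what the codes stand for. Dual replicate 3 and IPW-5371 replicate 3 are named as resubmitted libraries. Triple replicate 2 and dual replicate 3 stood apart from the other tumors for nearly all members, so the members' triple and dual comparisons with Sham are given with and without them. Fold changes of the other gene lists include all tumors.

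Interferon alpha and beta bind a receptor made of Ifnar1 and Ifnar2, and the kinases Jak1 and Tyk2 then phosphorylate STAT proteins, which join Irf9 in a complex that binds the interferon-stimulated response element (ISRE) in promoters. The induced genes include sensors of viral nucleic acids, enzymes that degrade or modify RNA and proteins, membrane proteins that hold back viruses, and the pathway's own transcription factors and brakes. In irradiated tumors the pathway is known as a link between damaged DNA and the recruitment of T cells, and interferon gamma induces many of the same genes.

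Promoter sequences show where the response element lies in some of the members. RefSeq promoters on build GRCm38.p6 were available for 22 of the 31 members. The ISRE core, spelled GAAA, any 2 bases, GAAA and searched on both strands in the 250 bases before the start site with overlapping matches counted separately, was found in 9 of these 22 genes (40.9%) and in 936 of 27025 genes in the table (3.46%). The core of the interferon gamma activation site, TTCNNNGAA, was found in 4 of the 22 (18.2%) against 8.13% of all genes. The last 170 bases before the start site follow for 5 members with the ISRE core and 3 without it. These members were picked after their values were seen and include the extremes of each kind in the dual group against Sham. Isg15 and Oas3 had the lowest and highest fold changes with the core, and Ifitm3 and Ifi44 those without it. The stretches are read 5′ to 3′ on the gene's strand, with ISRE core matches in capitals.
Oas3: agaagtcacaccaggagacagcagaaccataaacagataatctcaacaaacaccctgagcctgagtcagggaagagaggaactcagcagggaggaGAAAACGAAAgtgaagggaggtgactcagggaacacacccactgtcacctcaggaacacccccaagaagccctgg
Ifit3: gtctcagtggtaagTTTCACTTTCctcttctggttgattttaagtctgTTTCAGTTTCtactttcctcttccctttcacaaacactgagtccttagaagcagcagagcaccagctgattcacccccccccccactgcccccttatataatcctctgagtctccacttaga
Ifit1: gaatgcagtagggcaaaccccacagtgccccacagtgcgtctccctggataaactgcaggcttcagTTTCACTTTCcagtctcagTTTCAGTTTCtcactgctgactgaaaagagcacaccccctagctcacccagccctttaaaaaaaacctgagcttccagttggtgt
Trim30a: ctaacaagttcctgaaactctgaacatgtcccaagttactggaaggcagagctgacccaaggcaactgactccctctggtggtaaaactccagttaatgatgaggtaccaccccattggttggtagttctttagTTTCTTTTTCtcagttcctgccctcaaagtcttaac
Isg15: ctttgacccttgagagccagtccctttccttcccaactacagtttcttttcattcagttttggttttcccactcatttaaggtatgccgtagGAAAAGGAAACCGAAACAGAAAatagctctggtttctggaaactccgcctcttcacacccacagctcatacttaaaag
Ifi44: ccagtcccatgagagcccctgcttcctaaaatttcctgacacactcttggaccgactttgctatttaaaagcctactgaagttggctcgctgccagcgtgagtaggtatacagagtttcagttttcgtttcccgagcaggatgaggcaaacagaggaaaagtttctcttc
Ifih1: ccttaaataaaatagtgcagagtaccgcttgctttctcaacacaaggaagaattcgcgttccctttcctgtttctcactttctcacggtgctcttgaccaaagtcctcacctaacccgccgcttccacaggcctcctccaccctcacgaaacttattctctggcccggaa
Ifitm3: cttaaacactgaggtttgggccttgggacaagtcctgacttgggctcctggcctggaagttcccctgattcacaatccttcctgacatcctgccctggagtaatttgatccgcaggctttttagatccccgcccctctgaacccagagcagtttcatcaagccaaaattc
These stretches lie at chr5:120777660-120777829, chr19:34583359-34583528, chr19:34640719-34640888, chr7:104465194-104465363, chr4:156200819-156200988, chr3:151749911-151750080, chr2:62646256-62646425 and chr7:141010745-141010914, in the order printed, with Ifit3 and Ifit1 on the plus strand and the rest on the minus strand. Isg15 held 3 matches that overlap, the first starting 78 bases before the start site. In Ifit3 the 2 matches started 156 and 122 bases before it, in Ifit1 104 and 85 bases, in Oas3 75 bases and in Trim30a 36 bases. Bst2 and Oas1a each held 2 matches, and Rsad2 and Stat2 1 each. A match describes these letters only, and the absence of one in Ifi44, Ifih1 or Ifitm3 says nothing of sites elsewhere or of near matches. Across the genes with a listed promoter, the median log2 fold change in the dual group against Sham was 2.96 for the 9 genes with the ISRE core (1.59 to 5.23) and 2.11 for the 13 without it (0.55 to 3.92), so the ranges overlapped. Ifi44, without the core, had higher fold changes than Ifit1, with 2 matches, and Eif2ak2 and Ifi35, also without it, were lower in both groups than Ifih1.

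Across the whole set, all 31 members were higher in the triple group and in the dual group than in Sham, by median log2 fold changes of 2.85 and 2.77, where the median over all genes tested was -0.0043 and -0.01. No member passed the test. By edgeR's quasi-likelihood test with Benjamini-Hochberg adjustment over all 16017 genes, 0 of 31 members had an adjusted p under 0.05 in either comparison (0% of all genes in both), the smallest being 0.194 in the triple group and 0.207 in the dual group. At an unadjusted p under 0.05, 30 members were higher in the triple group (9.96% of all genes) and 26 in the dual group (9.76%). DESeq2 called 18 members in the triple group (3.86% of all genes) and 15 in the dual group (3.05%), and limma-voom called 0. All 3 tumors lay above all 3 Sham tumors for 23 members in the triple group (9.41% of all genes) and 21 in the dual group (10.7%). The triple tumors carry both library codes, and with the code as a term, an effect estimated from the triple group alone, the triple group's median was 1.01 and 2 members had an unadjusted p under 0.05 (2.57% of all genes). That code effect sets triple replicates 2 and 3 against triple replicate 1. It therefore includes the high values of triple replicate 2 and cannot be read as a correction for the code alone. These 2 comparisons share the Sham tumors and are not independent of each other.

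**Figure D1:**
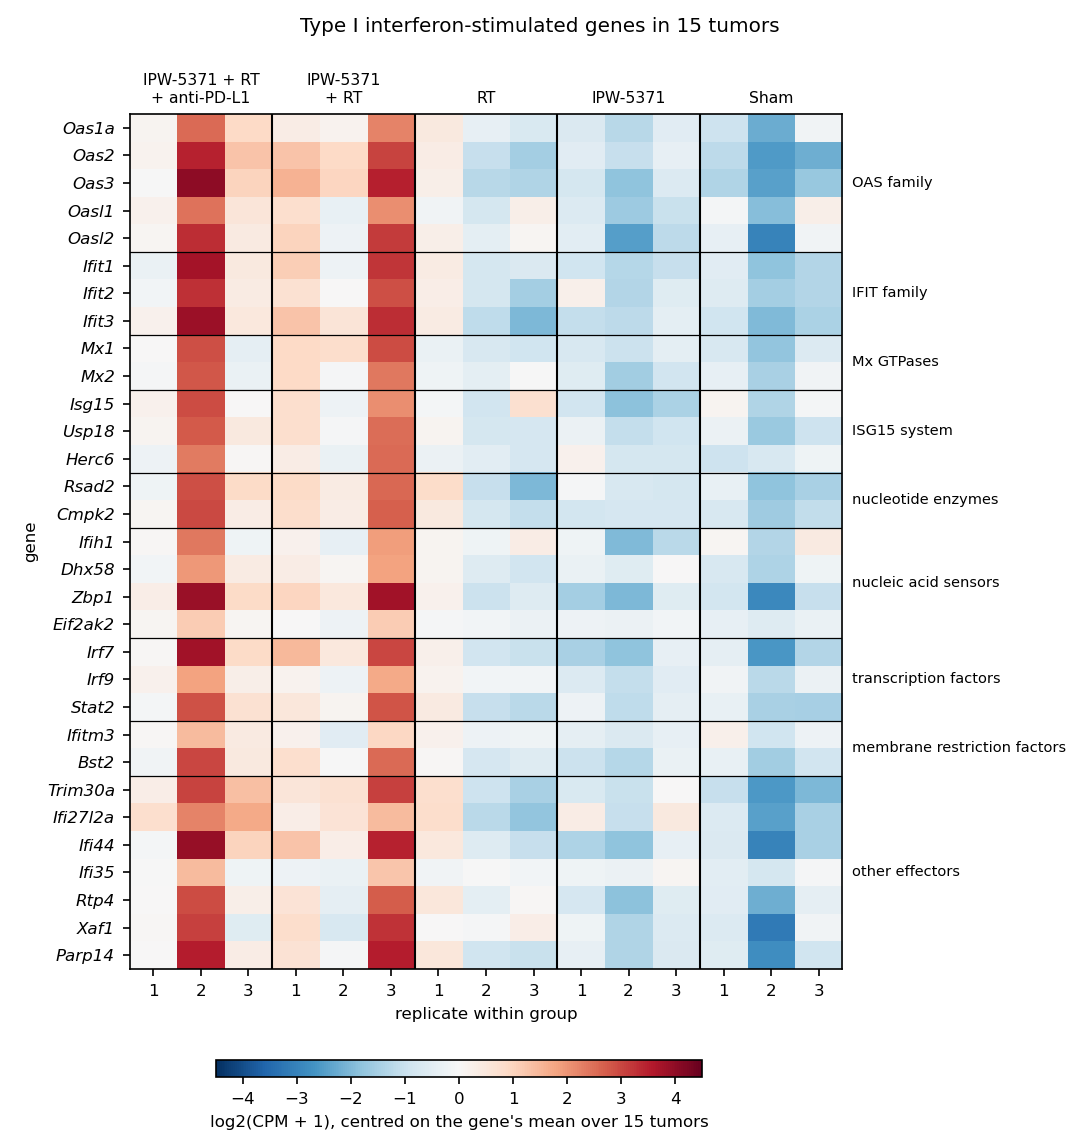
Heat map of the 31 members (rows, ordered by role) in the 15 tumors (columns, by group and replicate) as log2(CPM + 1) minus the mean of that gene. Replicate 2 of IPW-5371 + RT + anti-PD-L1 and replicate 3 of IPW-5371 + RT stand out in red for 30 of 31 genes, and Sham replicate 2 is the lowest tumor for 23.

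Both averages rested in large part on 1 tumor each. Triple replicate 2 and dual replicate 3 exceeded all of the other 13 tumors for 30 of 31 members (16% of all genes), and the lower of these 2 tumors was a median of 3.52 times the highest of the other 13, up to 7.55 times for Parp14. The exception was Ifi27l2a, for which triple replicate 3 lay above dual replicate 3. A score per tumor, the mean over the 31 genes of centred log2(CPM + 1), was 0.05, 2.86 and 0.46 in triple replicates 1, 2 and 3, 0.70, 0.08 and 2.56 in the dual tumors, 0.23, -0.67 and -0.70 in the RT tumors and -0.55, -1.26 and -0.55 in the IPW-5371 tumors, against -0.53, -1.89 and -0.79 in the Sham tumors. The remaining 2 triple and 2 dual tumors therefore scored between 0.05 and 0.70, below RT replicate 1 in 2 of 4 cases and above every IPW-5371 and Sham tumor in all 4. Single triple tumors exceeded all 3 Sham tumors for 27, 31 and 26 members in replicates 1, 2 and 3 (22.6%, 35.6% and 27.5% of all genes), and single dual tumors for 28, 21 and 31 (26.2%, 23.7% and 35%). Sham replicate 2 was the lowest Sham tumor for 29 members.

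Without triple replicate 2 and dual replicate 3, an omission made after the data were seen, all 31 members were still higher than in Sham in both groups, by medians of 1.32 in the triple group and 1.42 in the dual group. At an unadjusted p under 0.05, 17 members were then higher in the triple group (4.91% of all genes) and 19 in the dual group (5.92%), and 0 passed adjustment, with smallest adjusted p values of 0.341 and 0.384. Triple replicates 1 and 3 both lay above all 3 Sham tumors for 23 members (12.3% of all genes), and dual replicates 1 and 2 for 21 (13.3%). Oas2, Oas3, Trim30a and Ifi27l2a then had the highest log2 fold changes of the members in the triple group, 3.27, 3.24, 2.99 and 2.92. In the dual group the values of the same genes were 3.58, 4.03, 2.69 and 2.06. Ifih1 had the lowest in both groups, 0.02 in the triple group and 0.05 in the dual group. Without the resubmitted libraries, dual replicate 3 and IPW-5371 replicate 3, the median in the dual group was 1.43. These 5 genes were named after their values were seen.

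**Figure D2:**
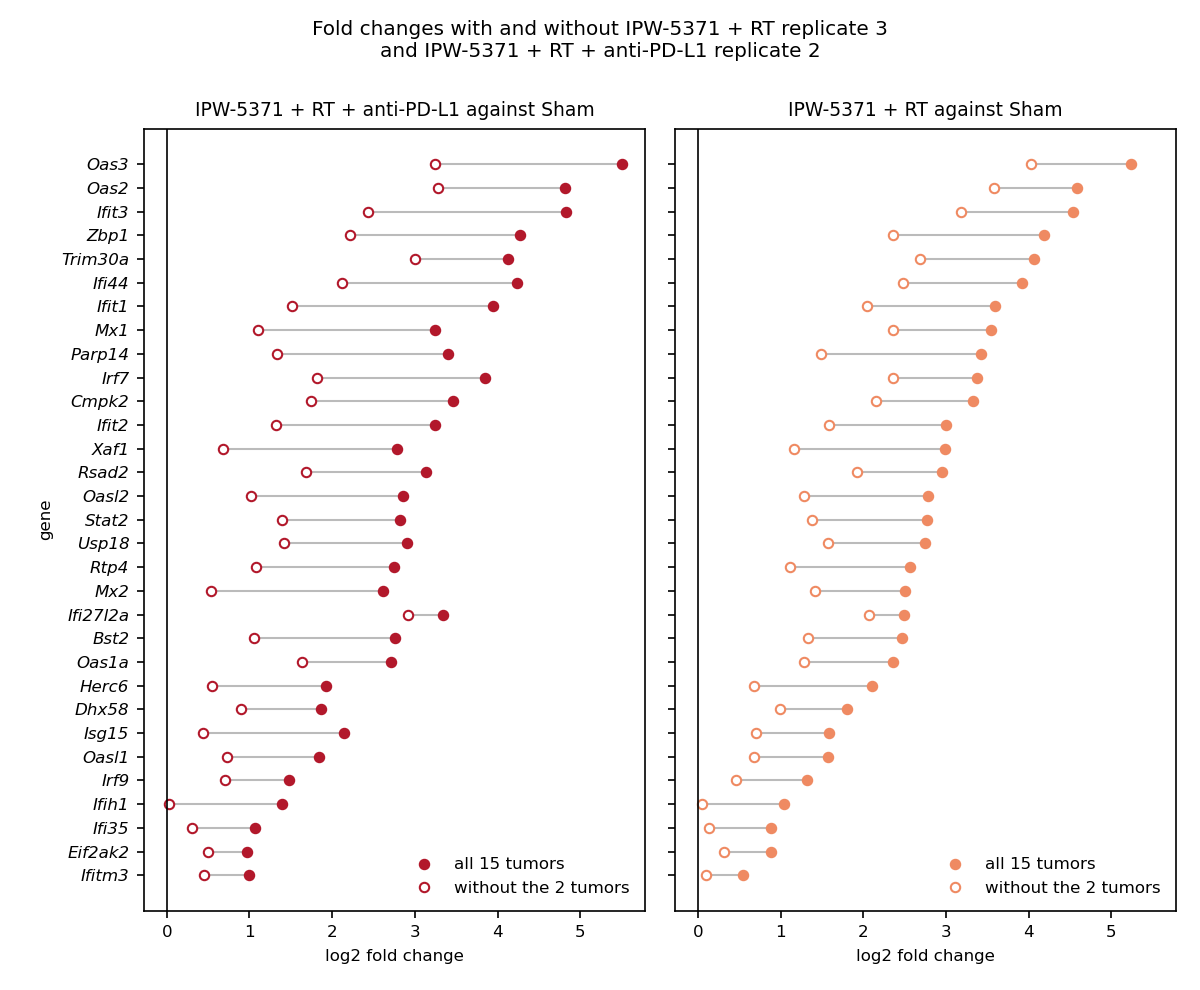
Log2 fold change against Sham of each of the 31 members in all 15 tumors (filled points) and without triple replicate 2 and dual replicate 3 (open points), for IPW-5371 + RT + anti-PD-L1 (left) and IPW-5371 + RT (right). All open points stay above 0, and their medians are 1.32 and 1.42 against 2.85 and 2.77 for the filled points.

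Synthetases of the OAS family make short oligoadenylates when they meet double-stranded RNA, and these activate an RNase that degrades RNA in the cell. All 5 members lie on chromosome 5, Oas2, Oas3 and Oas1a from 120730333 to 120907525 and Oasl2 and Oasl1 from 114896934 to 114937911 (build GRCm38). Oas2 measured 8.67, 94.3 and 20.0 CPM in the triple tumors, 20.0, 15.0 and 69.8 CPM in the dual tumors, 9.85, 3.19 and 2.04 CPM in the RT tumors and 5.10, 3.19 and 5.74 CPM in the IPW-5371 tumors, against 2.86, 0.491 and 0.908 CPM in the Sham tumors. Every triple and dual tumor but triple replicate 1 exceeded all RT, IPW-5371 and Sham tumors, and every IPW-5371 tumor exceeded every Sham tumor. Against Sham, the log2 fold change of Oas2 was 4.81 ± 1.04 in the triple group and 4.58 ± 1.04 in the dual group (edgeR adjusted p = 0.194 and 0.207). The values for Oas2 without triple replicate 2 and dual replicate 3 were 3.27 and 3.58. Of the 31 members Oas2 had the smallest unadjusted p in both comparisons, 0.000514 and 0.000717. Oas3, the largest of the synthetases, had the highest fold changes of all members, 5.51 ± 1.28 in the triple group and 5.23 ± 1.27 in the dual group, on Sham levels of only 1.43, 0.164 and 0.908 CPM, which were 24, 2 and 14 counts. Oasl2 had 27.5, 266 and 34.6 CPM in the triple group, 52.7, 21.8 and 238 CPM in the dual group, 31.4, 18.7 and 27.5 CPM in the RT group and 18.5, 3.83 and 10.7 CPM in the IPW-5371 group, against 20.0, 2.37 and 22.8 CPM in Sham. Every triple tumor and dual replicates 1 and 3 exceeded every Sham tumor for Oasl2, while Sham replicate 2 was the lowest of all 15. Oasl2 and Oasl1, oligoadenylate synthetase-like proteins of which Oasl1 is known in mice to restrain translation of Irf7, had lower levels in IPW-5371 than in Sham, with log2 fold changes of -0.46 ± 1.04 and -0.81 ± 0.77 (edgeR adjusted p = 0.942 and 0.827). Triple tumors differed from Sham in Oasl2 by 2.85 ± 1.09 on the log2 scale and dual tumors by 2.78 ± 1.08 (edgeR adjusted p = 0.261 and 0.263). With triple replicate 2 and dual replicate 3 left out, Oasl2 differed by 1.01 and 1.28. Oas1a measured 24.2 ± 22.0 CPM in the triple group and 19.0 ± 17.0 CPM in the dual group, against 3.67 ± 2.93 CPM in Sham (SD, n = 3). Reads of Oas1a and its near-identical neighbors such as Oas1g may have been split or dropped in counting.

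The IFIT proteins bind foreign RNA ends and block their translation, and their genes lie side by side on chromosome 19 (34550694 to 34650009). All 3 were higher in every triple and dual tumor than in every Sham tumor. Ifit3 measured 4.60, 70.7 and 5.83 CPM in the triple tumors, 11.0, 6.37 and 48.7 CPM in the dual tumors, 5.36, 1.22 and 0.211 CPM in the RT tumors and 1.32, 1.20 and 2.67 CPM in the IPW-5371 tumors, against 1.67, 0.246 and 0.843 CPM in the Sham tumors. RT replicate 3 had the lowest Ifit3 CPM of all tumors, on 3 counts, as many as in Sham replicate 2. RT replicate 1 was close to the lower triple and dual tumors for Ifit3. On the log2 scale Ifit3 was higher than in Sham by 4.83 ± 1.35 in the triple group and 4.53 ± 1.34 in the dual group (edgeR adjusted p = 0.195 and 0.207). Ifit3 stood at 2.44 and 3.18 without triple replicate 2 and dual replicate 3. Ifit1 had 4.87, 95.0 and 8.70 CPM in the triple group, 14.4, 5.11 and 65.4 CPM in the dual group, 8.29, 3.12 and 3.58 CPM in the RT group and 2.81, 1.91 and 2.51 CPM in the IPW-5371 group, against 4.00, 1.06 and 1.88 CPM in Sham. Ifit1 in RT replicate 1 lay above triple replicate 1 and dual replicate 2. Ifit1 had log2 fold changes against Sham of 3.95 ± 1.16 in the triple group and 3.59 ± 1.14 in the dual group (edgeR adjusted p = 0.197 and 0.211). For Ifit1 these were 1.51 in the triple group and 2.04 in the dual group without triple replicate 2 and dual replicate 3. Ifit2 measured 60.2 ± 76.5 CPM in the triple group and 50.6 ± 54.8 CPM in the dual group, against 6.30 ± 2.63 CPM in Sham (SD, n = 3). Counts of Ifit3 may be mixed with those of its near copy Ifit3b.

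**Figure D3:**
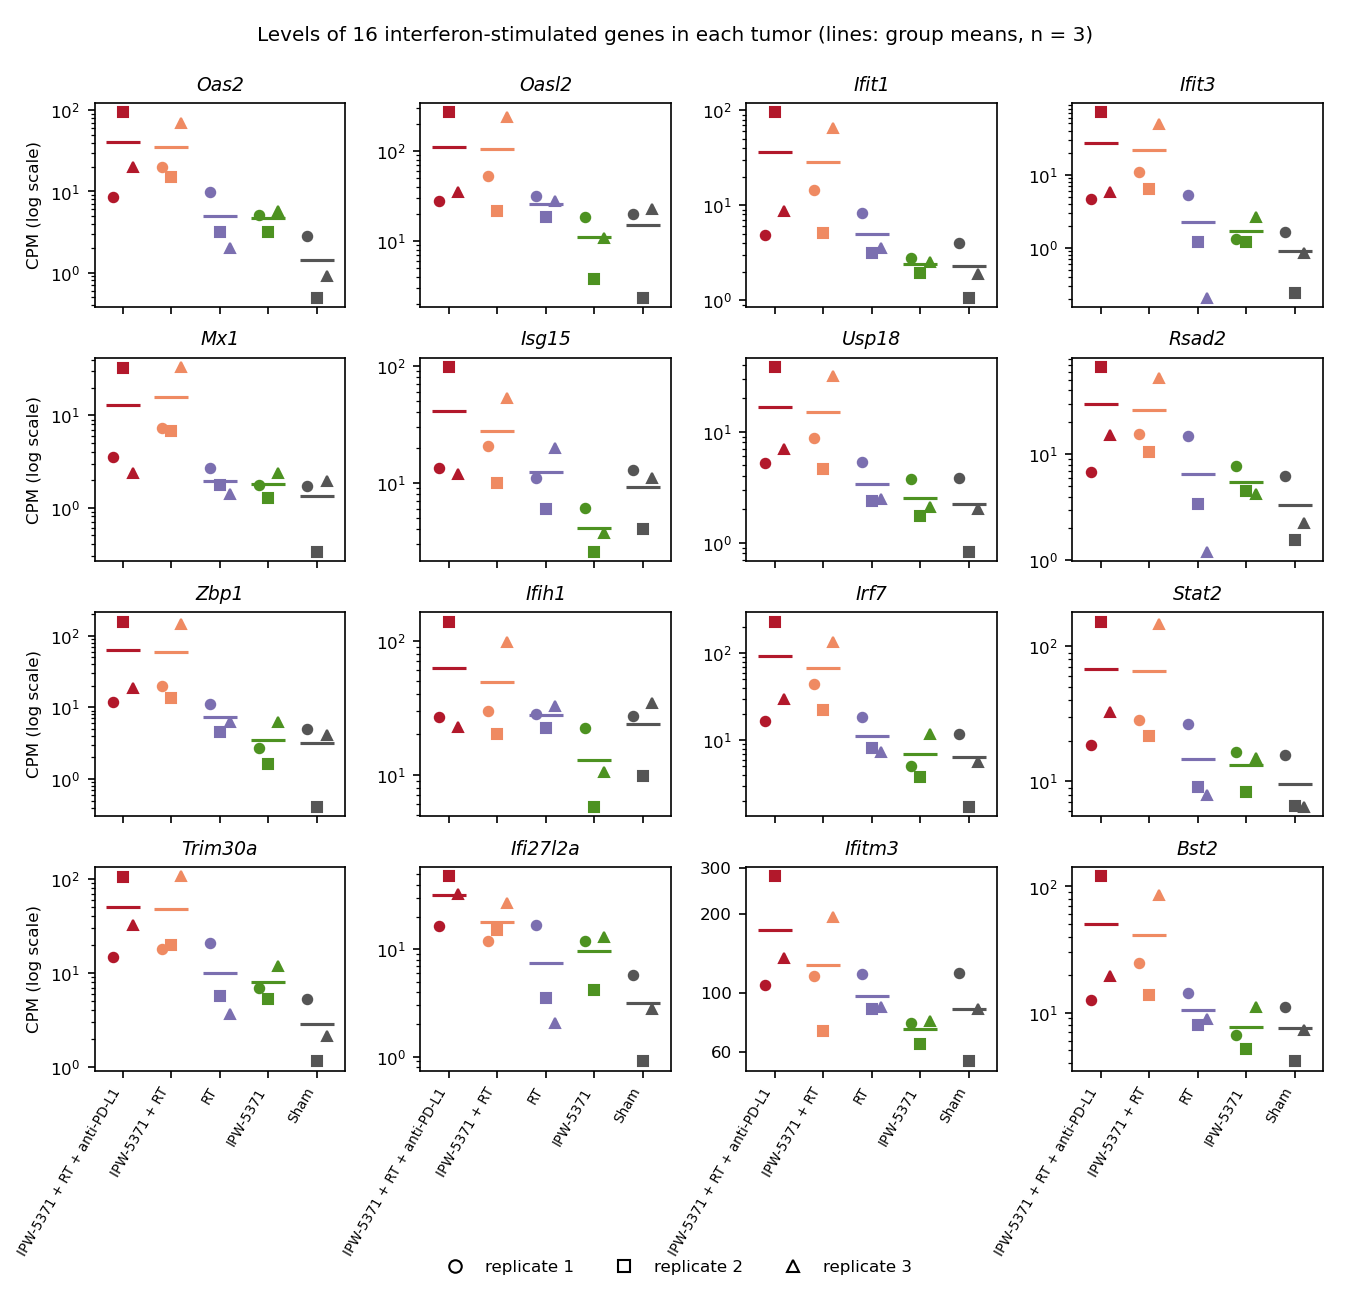
CPM (log axis) of 16 members in each tumor, by group, with symbols for replicates and lines for group means of 3 tumors. The square of IPW-5371 + RT + anti-PD-L1 and the triangle of IPW-5371 + RT lie apart from the other tumors in every panel but Ifi27l2a. Isg15, Ifih1, Oasl2 and Ifitm3 are lower in IPW-5371 than in Sham on average.

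The Mx proteins are GTPases that trap viral particles, and most inbred laboratory mouse strains carry a defective Mx1 allele, so Mx1 counts say nothing of antiviral function. Mx1 measured 3.53, 32.8 and 2.36 CPM in the triple tumors, 7.29, 6.84 and 33.4 CPM in the dual tumors, 2.68, 1.76 and 1.41 CPM in the RT tumors and 1.76, 1.28 and 2.34 CPM in the IPW-5371 tumors, against 1.73, 0.327 and 1.95 CPM in the Sham tumors. The dual tumors lay above all RT, IPW-5371 and Sham tumors, whereas triple replicate 3 lay among the RT tumors. Against Sham, the log2 fold change of Mx1 was 3.25 ± 1.00 in the triple group and 3.54 ± 1.01 in the dual group (edgeR adjusted p = 0.210 and 0.207). The values for Mx1 without triple replicate 2 and dual replicate 3 were 1.10 and 2.36. Mx2 was the member with the lowest level per kilobase of exon over all tumors, 2.06 CPM per kilobase, and Mx1 the next at 2.51.

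Isg15 is a ubiquitin-like protein that is attached to other proteins, Herc6 is its main ligase in the mouse, and Usp18 removes it and also restrains the interferon receptor. Isg15 measured 13.5, 97.4 and 11.9 CPM in the triple tumors, 20.5, 9.91 and 53.3 CPM in the dual tumors, 10.9, 5.97 and 20.0 CPM in the RT tumors and 6.07, 2.55 and 3.72 CPM in the IPW-5371 tumors, against 12.8, 4.01 and 10.9 CPM in the Sham tumors. All triple and dual tumors lay above all IPW-5371 tumors but overlapped the RT and Sham tumors, RT replicate 3 being close to dual replicate 1. Triple tumors differed from Sham in Isg15 by 2.14 ± 0.85 on the log2 scale and dual tumors by 1.59 ± 0.84 (edgeR adjusted p = 0.276 and 0.383). With triple replicate 2 and dual replicate 3 left out, Isg15 differed by 0.43 and 0.70. Isg15 had the lowest fold change of all members in IPW-5371 against Sham, -1.17 ± 0.86 (adjusted p = 0.755), with means of 4.11 ± 1.79 CPM in IPW-5371 and 9.22 ± 4.61 CPM in Sham (SD, n = 3). Usp18 had 5.27, 38.2 and 6.92 CPM in the triple group, 8.85, 4.64 and 31.9 CPM in the dual group, 5.30, 2.38 and 2.46 CPM in the RT group and 3.78, 1.75 and 2.10 CPM in the IPW-5371 group, against 3.82, 0.819 and 2.01 CPM in Sham. Every triple and dual tumor exceeded every Sham tumor for Usp18. On the log2 scale Usp18 was higher than in Sham by 2.90 ± 0.89 in the triple group and 2.75 ± 0.89 in the dual group (edgeR adjusted p = 0.210 and 0.212). Usp18 stood at 1.42 and 1.57 without triple replicate 2 and dual replicate 3. Herc6 measured 30.5 ± 32.2 CPM in the triple group and 34.6 ± 37.6 CPM in the dual group, against 8.02 ± 2.44 CPM in Sham (SD, n = 3), and its groups overlapped.

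Rsad2, or viperin, makes a nucleotide that ends viral RNA chains, and Cmpk2, its neighbor on chromosome 12, is a mitochondrial nucleotide kinase. Rsad2 measured 6.80, 66.5 and 15.3 CPM in the triple tumors, 15.5, 10.5 and 52.8 CPM in the dual tumors, 14.8, 3.39 and 1.19 CPM in the RT tumors and 7.74, 4.47 and 4.20 CPM in the IPW-5371 tumors, against 6.20, 1.56 and 2.27 CPM in the Sham tumors. RT replicate 1 was close to triple replicate 3 and dual replicate 1, while RT replicate 3 had the lowest level of all tumors. Rsad2 had log2 fold changes against Sham of 3.13 ± 1.03 in the triple group and 2.96 ± 1.03 in the dual group (edgeR adjusted p = 0.225 and 0.226). For Rsad2 these were 1.68 in the triple group and 1.93 in the dual group without triple replicate 2 and dual replicate 3. Cmpk2 measured 18.4 ± 22.1 CPM in the triple group and 16.8 ± 16.2 CPM in the dual group, against 1.66 ± 0.773 CPM in Sham (SD, n = 3), with log2 fold changes of 3.46 ± 0.93 and 3.32 ± 0.93, or 1.74 and 2.15 without triple replicate 2 and dual replicate 3.

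Among the sensors of nucleic acids the differences were uneven. Zbp1 binds left-handed nucleic acid and can trigger necroptosis, Ifih1 (MDA5) detects long double-stranded RNA, Dhx58 (LGP2) regulates it, and Eif2ak2 (PKR) stops translation. Zbp1 measured 11.9, 157 and 18.5 CPM in the triple tumors, 19.6, 13.7 and 143 CPM in the dual tumors, 11.2, 4.48 and 6.18 CPM in the RT tumors and 2.73, 1.59 and 6.30 CPM in the IPW-5371 tumors, against 4.95, 0.409 and 4.15 CPM in the Sham tumors. All triple and dual tumors exceeded all RT, IPW-5371 and Sham tumors. Against Sham, the log2 fold change of Zbp1 was 4.27 ± 1.23 in the triple group and 4.19 ± 1.22 in the dual group (edgeR adjusted p = 0.196 and 0.207). The values for Zbp1 without triple replicate 2 and dual replicate 3 were 2.22 and 2.36. Ifih1 had 26.7, 138 and 22.5 CPM in the triple group, 30.0, 19.9 and 98.1 CPM in the dual group, 28.4, 22.2 and 32.5 CPM in the RT group and 22.4, 5.74 and 10.4 CPM in the IPW-5371 group, against 27.5, 9.82 and 34.1 CPM in Sham. Ifih1 in dual replicates 1 and 2 and triple replicates 1 and 3 lay within the range of the Sham tumors. Triple tumors differed from Sham in Ifih1 by 1.39 ± 0.78 on the log2 scale and dual tumors by 1.05 ± 0.77 (edgeR adjusted p = 0.422 and 0.533). With triple replicate 2 and dual replicate 3 left out, Ifih1 differed by 0.02 and 0.05. In IPW-5371 against Sham the fold change of Ifih1 was -0.89 ± 0.78 (adjusted p = 0.805). Eif2ak2 had a small difference and little spread in Sham, at 60.5 ± 28.3 CPM in the triple group and 56.6 ± 31.5 CPM in the dual group, against 30.8 ± 2.90 CPM in Sham (SD, n = 3). For Eif2ak2 all 3 tumors of each treated group lay above all 3 Sham tumors. Dhx58 had log2 fold changes of 1.86 ± 0.62 and 1.80 ± 0.62 in the triple and dual groups against Sham, and 0.90 and 0.99 without triple replicate 2 and dual replicate 3.

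Of the transcription factors, Irf7 drives the interferon alpha genes and amplifies the response, and Stat2 and Irf9 are the subunits that give the ISRE complex its specificity. Irf7 measured 16.5, 231 and 29.5 CPM in the triple tumors, 44.6, 22.0 and 135 CPM in the dual tumors, 18.6, 8.14 and 7.31 CPM in the RT tumors and 5.01, 3.75 and 11.9 CPM in the IPW-5371 tumors, against 11.8, 1.72 and 5.64 CPM in the Sham tumors. All dual tumors lay above all RT, IPW-5371 and Sham tumors. On the log2 scale Irf7 was higher than in Sham by 3.84 ± 1.07 in the triple group and 3.38 ± 1.05 in the dual group (edgeR adjusted p = 0.194 and 0.211). Irf7 stood at 1.82 and 2.36 without triple replicate 2 and dual replicate 3. Stat2 had 18.7, 152 and 32.6 CPM in the triple group, 28.4, 21.9 and 146 CPM in the dual group, 26.6, 9.16 and 7.94 CPM in the RT group and 16.6, 8.37 and 14.9 CPM in the IPW-5371 group, against 15.7, 6.55 and 6.48 CPM in Sham. Every triple and dual tumor exceeded every Sham tumor for Stat2, and RT replicate 1 lay within the range of the triple and dual tumors. Stat2 had log2 fold changes against Sham of 2.82 ± 0.90 in the triple group and 2.77 ± 0.90 in the dual group (edgeR adjusted p = 0.218 and 0.213). For Stat2 these were 1.39 in the triple group and 1.38 in the dual group without triple replicate 2 and dual replicate 3. Irf9 measured 44.2 ± 31.1 CPM in the triple group and 39.7 ± 30.8 CPM in the dual group, against 15.8 ± 5.94 CPM in Sham (SD, n = 3), and its log2 fold changes of 1.48 ± 0.54 and 1.32 ± 0.54 were the smallest of the 3 factors (0.70 and 0.46 without triple replicate 2 and dual replicate 3).

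Ifitm3, which blocks the fusion of viruses with endosomes, and Bst2, or tetherin, which holds budding virus at the cell surface, were the members with the highest levels per kilobase of exon, 173 and 30.6 CPM per kilobase over all tumors. Ifitm3 measured 107, 279 and 136 CPM in the triple tumors, 116, 72.1 and 196 CPM in the dual tumors, 118, 87.0 and 88.7 CPM in the RT tumors and 77.0, 64.4 and 78.9 CPM in the IPW-5371 tumors, against 119, 55.1 and 87.6 CPM in the Sham tumors. The triple and dual tumors overlapped the RT and Sham tumors, and its fold change was the lowest of all members in the dual group. Against Sham, the log2 fold change of Ifitm3 was 1.00 ± 0.40 in the triple group and 0.55 ± 0.40 in the dual group (edgeR adjusted p = 0.279 and 0.521). The values for Ifitm3 without triple replicate 2 and dual replicate 3 were 0.46 and 0.09. Bst2 had 12.5, 120.5 and 19.3 CPM in the triple group, 24.6, 13.7 and 86.3 CPM in the dual group, 14.4, 7.94 and 8.92 CPM in the RT group and 6.68, 5.10 and 11.2 CPM in the IPW-5371 group, against 11.0, 4.09 and 7.33 CPM in Sham. Every triple and dual tumor exceeded every Sham tumor for Bst2. Triple tumors differed from Sham in Bst2 by 2.76 ± 0.86 on the log2 scale and dual tumors by 2.46 ± 0.85 (edgeR adjusted p = 0.212 and 0.223). With triple replicate 2 and dual replicate 3 left out, Bst2 differed by 1.06 and 1.33.

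The remaining members have varied roles. Trim30a is a ubiquitin ligase known in mice to restrain Toll-like receptor signaling, Ifi27l2a is a small membrane protein, Xaf1 promotes apoptosis, Parp14 adds ADP-ribose to proteins, Rtp4 is a Golgi chaperone, Ifi35 is a cytoplasmic protein that can be released as a danger signal, and Ifi44 is a cytoplasmic protein. Trim30a measured 14.7, 104 and 32.1 CPM in the triple tumors, 17.9, 19.7 and 107 CPM in the dual tumors, 20.8, 5.70 and 3.65 CPM in the RT tumors and 6.95, 5.34 and 11.9 CPM in the IPW-5371 tumors, against 5.25, 1.15 and 2.14 CPM in the Sham tumors. All treated tumors but RT replicate 3 exceeded the highest Sham tumor. On the log2 scale Trim30a was higher than in Sham by 4.12 ± 1.01 in the triple group and 4.06 ± 1.01 in the dual group (edgeR adjusted p = 0.194 and 0.207). Trim30a stood at 2.99 and 2.69 without triple replicate 2 and dual replicate 3. Counts of Trim30a may be mixed with those of its close relatives such as Trim30d. Ifi27l2a had 16.5, 47.9 and 32.8 CPM in the triple group, 11.8, 15.2 and 27.0 CPM in the dual group, 17.0, 3.53 and 2.04 CPM in the RT group and 12.0, 4.15 and 13.0 CPM in the IPW-5371 group, against 5.79, 0.901 and 2.79 CPM in Sham. Ifi27l2a differed from the other members in its order of tumors, since triple replicate 3 was the second highest, and RT replicate 1 and IPW-5371 replicates 1 and 3 exceeded dual replicate 1. Ifi27l2a had log2 fold changes against Sham of 3.34 ± 0.84 in the triple group and 2.49 ± 0.82 in the dual group (edgeR adjusted p = 0.194 and 0.216). For Ifi27l2a these were 2.92 in the triple group and 2.06 in the dual group without triple replicate 2 and dual replicate 3. Ifi44 had fold changes of 4.23 ± 1.20 and 3.92 ± 1.18, Parp14 3.40 ± 1.14 and 3.43 ± 1.14, Xaf1 2.78 ± 1.18 and 2.98 ± 1.19, and Rtp4 2.75 ± 0.97 and 2.56 ± 0.96 in the triple and dual groups. Leaving out triple replicate 2 and dual replicate 3 gave 2.12 and 2.48 for Ifi44, 1.33 and 1.49 for Parp14, 0.68 and 1.16 for Xaf1, 1.07 and 1.11 for Rtp4 and 0.31 and 0.13 for Ifi35. Ifi35 had fold changes of only 1.07 ± 0.48 and 0.89 ± 0.48, on levels of 23.8 ± 16.5 CPM in the triple group and 21.0 ± 14.7 CPM in the dual group, against 11.3 ± 3.24 CPM in Sham (SD, n = 3).

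**Figure D4:**
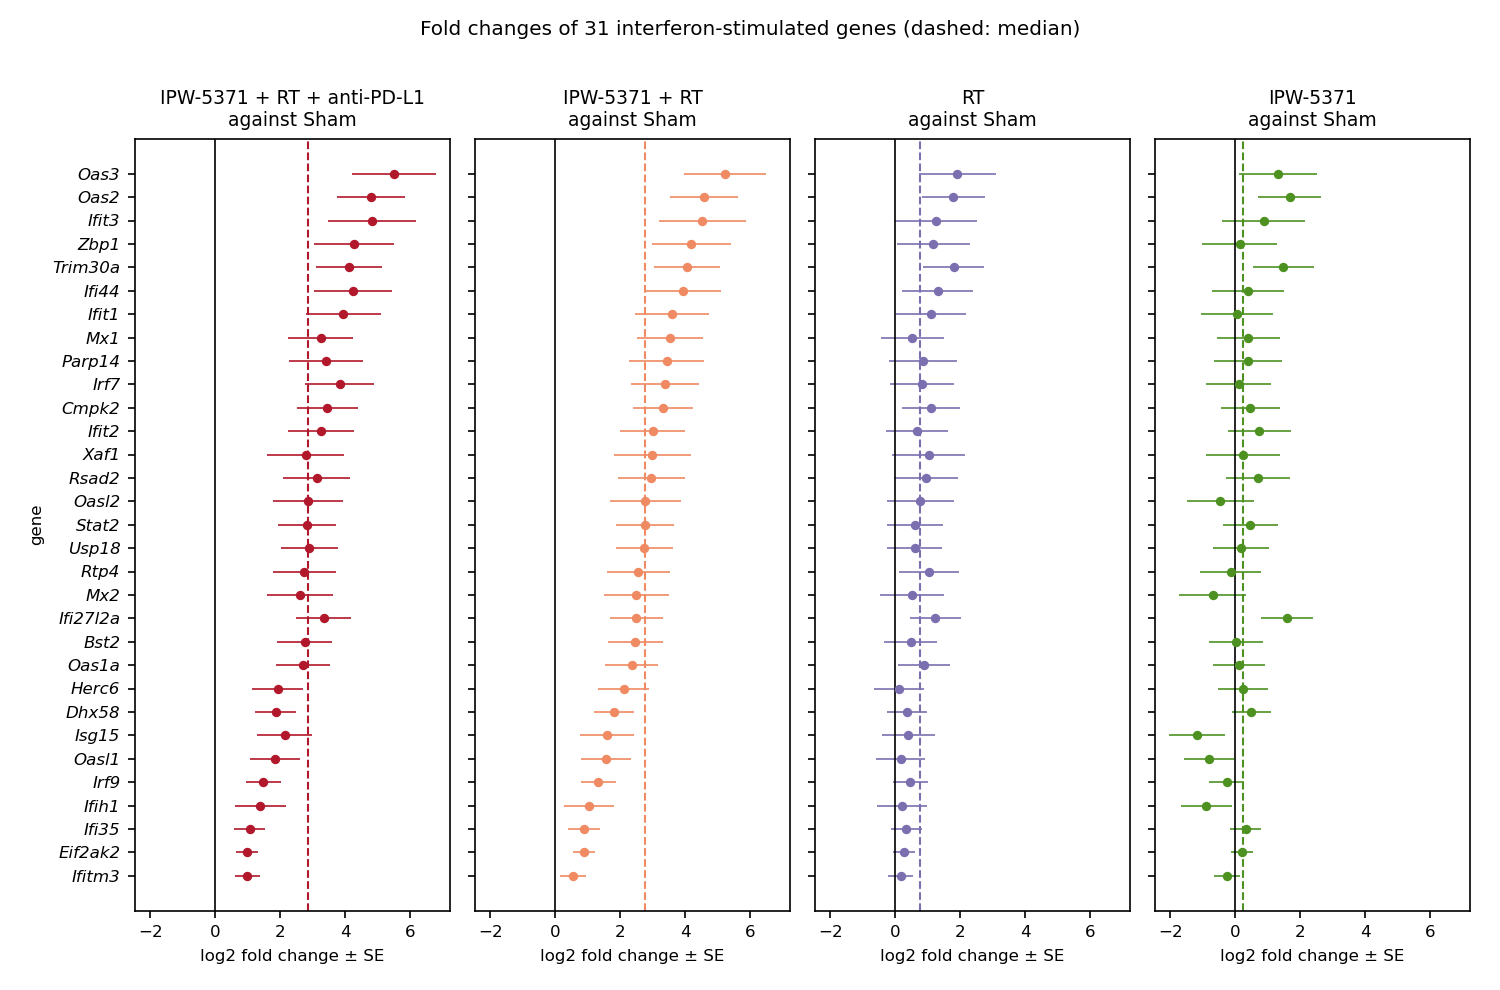
Log2 fold change ± SE against Sham of the 31 members in the IPW-5371 + RT + anti-PD-L1, IPW-5371 + RT, RT and IPW-5371 groups, from a fit to all 15 tumors, with genes in the order of the second panel and dashed lines at the medians of 2.85, 2.77, 0.78 and 0.23. Every point lies above 0 in the first 3 panels, and 23 of 31 do so in the IPW-5371 panel.

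The comparison of RT with Sham addressed what 10 Gy did without the inhibitor. All 31 members were higher in RT than in Sham, by 0.12 (Herc6) to 1.91 (Oas3) on the log2 scale, with a median of 0.78 against 0.01 over all genes. None passed (0% of all genes), with 0 members at an unadjusted p under 0.05 (1.79% of all genes higher) and a smallest adjusted p of 0.999. The smallest unadjusted p values were those of Trim30a (0.0779), Oas2 (0.0864) and Oas3 (0.131), with fold changes of 1.80 ± 0.94, 1.79 ± 0.96 and 1.91 ± 1.18. RT replicate 1 exceeded RT replicates 2 and 3 for 25 of 31 members and all Sham tumors for 24 (26.8% of all genes), whereas RT replicates 2 and 3 did so for 8 (17.4%) and 10 (24.4%). For 4 members, Eif2ak2, Irf9, Xaf1 and Oas3, all RT tumors lay above all Sham tumors (5.77% of all genes). Without RT replicate 1 the median was 0.25. All RT libraries carry the code A2304 in their names and all Sham libraries A2301, so radiation alone and this code cannot be told apart, and including the code in the model gave a median of -1.54. The code effect in that fit rests on the triple group alone and includes the high values of triple replicate 2.

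IPW-5371 alone left the members divided. Of 31 members 23 were higher than in Sham, with a median of 0.23 against -0.01 over all genes and a range from -1.17 (Isg15) to 1.68 (Oas2). No member passed (0.00624% of all genes), 0 had an unadjusted p under 0.05 (3.5% of all genes higher), and the smallest adjusted p was 0.614. The smallest unadjusted p values were those of Ifi27l2a (0.0677), Oas2 (0.107) and Trim30a (0.140), with fold changes of 1.60 ± 0.80, 1.68 ± 0.97 and 1.48 ± 0.94. All 3 IPW-5371 tumors lay above all 3 Sham tumors for Oas2, Trim30a and Eif2ak2 (7.43% of all genes). The 8 lower members were Isg15, Ifih1, Oasl1, Mx2, Oasl2, Irf9, Ifitm3 and Rtp4, with fold changes down to -1.17 ± 0.86, -0.89 ± 0.78 and -0.81 ± 0.77 for the first 3. Without Sham replicate 2 the median was -0.09. Single IPW-5371 tumors exceeded all Sham tumors for 10, 3 and 14 members in replicates 1, 2 and 3 (24%, 24.4% and 24.2% of all genes). These libraries share the code A2301.

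Adding radiation to IPW-5371 was the comparison of the dual group with IPW-5371, whose libraries share 1 code. All 31 members were higher in the dual group, by 0.57 (Ifi35) to 4.05 (Zbp1) and a median of 2.58, against 0.03 over all genes. None passed (0% of all genes), with a smallest adjusted p of 0.789, and 26 had an unadjusted p under 0.05 (4.35% of all genes higher). For 23 members all dual tumors lay above all IPW-5371 tumors (6.38% of all genes). The 3 smallest unadjusted p values were those of Oas3 (0.00566), Zbp1 (0.00568) and Mx1 (0.00778). Without dual replicate 3 the median was 1.24, and 30 of 31 members were higher when triple replicate 2 was left out as well.

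Adding IPW-5371 to radiation was the comparison of the dual group with RT, in which the library code differs between the groups and cannot be told apart from treatment. All 31 members were higher in the dual group, by 0.39 (Ifitm3) to 3.33 (Oas3) with a median of 2.00 against 0.00 over all genes. None passed (0% of all genes), with a smallest adjusted p of 0.467, and 17 had an unadjusted p under 0.05 (5.83% of all genes higher). Only Oas2, Oas3, Ifit3, Mx1, Zbp1 and Irf7 had all 3 dual tumors above all 3 RT tumors, 6 of 31 members where 7.66% of all genes did so. The smallest unadjusted p values were those of Mx1 (0.00913), Oas2 (0.0108) and Oas3 (0.0117). Without dual replicate 3 the median was 0.85. With the code as a term the median was 4.45, a fit in which the code effect rests on the triple group alone, triple replicate 2 included.

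Adding anti-PD-L1 to the dual treatment gave no member that passed (0% of all genes). Of 31 members 27 were higher in the triple group than in the dual group, by a median of 0.18 against 0.03 over all genes, from -0.29 (Mx1) to 0.85 (Ifi27l2a), and 0 had an unadjusted p under 0.05 (0.681% of all genes higher). The smallest unadjusted p values were those of Ifitm3 (0.283), Ifi27l2a (0.289) and Isg15 (0.508). The groups overlapped for all 31 members (2.1% of all genes lay wholly above). The median was -1.38 without triple replicate 2 and 1.41 without dual replicate 3, and -0.16 without both, when 9 of 31 members were higher in the triple group. All dual libraries carry A2301 and 2 of 3 triple libraries A2304, and with the code as a term the median was -1.73 and 0 of 31 members were higher in the triple group. That code effect rests on the triple tumors themselves and includes the high values of triple replicate 2. Within the code A2304, triple replicates 2 and 3 exceeded all 3 RT tumors for 22 members (14.2% of all genes), and within A2301 triple replicate 1 exceeded all 3 Sham tumors for 27 (22.6% of all genes).

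Pooled over groups, the 9 tumors given IPW-5371 had a median log2 fold change of 1.65 against the 6 without it, with 21 members higher at an unadjusted p under 0.05 (9.69% of all genes), and the 9 irradiated tumors had 2.00 against the 6 unirradiated ones, with 30 members (8.51%). These contrasts of group means, named for the inhibitor and for radiation, do not hold the other treatments equal. The dual and triple groups, given both agents, lay on the treated side of each contrast, and so did all anti-PD-L1 tumors. No member passed in either contrast (0% of all genes in both), and the smallest adjusted p values were 0.134 for the inhibitor and 0.295 for radiation. DESeq2 called 16 members for the inhibitor (4.69% of all genes) and 22 for radiation (2.13%). The 3 smallest unadjusted p values were those of Oas2 (0.000903), Oas3 (0.00199) and Trim30a (0.00289) for the inhibitor and of Oas2 (0.000730), Oas3 (0.000770) and Trim30a (0.00145) for radiation. Without triple replicate 2 and dual replicate 3 the medians were 0.65 for the inhibitor and 1.13 for radiation. With the library code as a term the radiation median was 0.76 and 0 members had an unadjusted p under 0.05 (1.89% of all genes), while the inhibitor median was 2.14 with 27 members (11.7%). The interaction, the dual group's excess over the sum of both single effects, was positive for 30 of 31 members with a median of 1.76 against 0.03 over all genes, from -0.35 for Ifi27l2a to 2.87 for Zbp1. No member passed the interaction test (0% of all genes), 0 had an unadjusted p under 0.05 (2.52% of all genes), and the median was 0.35 without triple replicate 2 and dual replicate 3. With the code as a term the interaction median was 4.00, all 31 members were above 0 and 18 had an unadjusted p under 0.05 (4.89% of all genes), but radiation alone and the code cannot be told apart. In the pooled and interaction fits with the code, its effect rests on the triple group alone and includes the high values of triple replicate 2. A test for any difference among the 5 groups called 0 members (0% of all genes), with 27 at an unadjusted p under 0.05 (10.8% of all genes) and 21 called by DESeq2 (4.1% of all genes). DESeq2 called 0 members in RT against Sham (0.00624% of all genes), IPW-5371 against Sham (0.793%), dual against IPW-5371 (0.0187%), dual against RT (0.393%), triple against dual (0.00624%) and the interaction (0.0187%), and limma-voom called 0 in all of them.

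The interferon alpha genes and Ifnb1 had few or no counts, and the log2 fold changes of the receptor genes were below the members' medians. Of the 14 interferon alpha genes counted here (Ifnab included), 12 had 0 counts in all 15 tumors, and 3 counts, the limit that a count of 0 allows, correspond to 0.175 to 0.273 CPM in a tumor, for counting error only. Ifna13 had 40 counts over the 15 tumors and at most 10 in 1 tumor, and Ifnb1 had 1 count each in triple replicate 1 and dual replicate 3, against 2 counts in Sham replicate 1. Other type I genes were counted in all 15 tumors, Ifnz at 48 counts in all and at most 10 in 1 tumor, and Ifnk at 148 counts and at most 19. Ifnk was the only ligand of 21 that passed the low-count filter, with a log2 fold change of 0.64 in the triple group and 1.05 in the dual group against Sham. Ifng, the type II interferon of T and NK cells, measured 0.133, 1.36 and 0.253 CPM in the triple tumors and 0.149, 0.393 and 2.13 CPM in the dual tumors, against 0.179, 0 and 0.0648 CPM in Sham. Its 2 highest tumors were those in which the members were highest. Of 10 genes of the receptors and their kinases and STATs, 9 were above Sham in the triple group and 9 in the dual group, with median log2 fold changes of 0.70 and 0.31. The receptor genes Ifnar1 and Ifnar2 had log2 fold changes of 0.28 and 0.89 in the triple group and 0.05 and 0.53 in the dual group.

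In the other lists of the pathway, 0 genes were called by edgeR in the triple or dual group against Sham. The fold changes of these lists include triple replicate 2 and dual replicate 3 and are not given without them. Of 17 sensors and adaptors of nucleic acids that were matched, 15 were above Sham in each group, with medians of 0.75 in the triple group and 0.69 in the dual group. The smallest unadjusted p values of that list in the dual group were those of Tlr9, Ifi204 and Sting1, whose log2 fold changes in the triple and dual groups were 4.59 and 3.77, 3.32 and 3.00 and 1.47 and 1.32. Of 12 negative regulators 7 were above Sham in the triple group and 8 in the dual group, with medians of 0.02 and 0.08, led in the dual group by Socs1, a feedback inhibitor of Janus kinases, at 1.78 and 2.52. Unscaled Socs1 counts were 75, 280 and 60 in the triple tumors and 68, 32 and 482 in the dual tumors, against 49, 27 and 51 in Sham. The gene Rigi was not analysed here. Of 46 other interferon-stimulated genes 45 were tested, and all 45 were above Sham in both groups, with medians of 2.17 and 2.07, against 40 of 45 in RT (median 0.56) and 28 of 45 in IPW-5371 (median 0.28). In the triple and dual groups Epsti1, an interferon-induced gene named for its part in the contact of epithelium and stroma, had fold changes of 5.34 and 4.64. Its Sham tumors had only 11, 1 and 1 counts, against 101, 332 and 68 in the triple tumors and 55, 39 and 171 in the dual tumors.

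Summed markers of NK cells, macrophages and dendritic cells were highest in triple replicate 2 and dual replicate 3, the tumors in which the members were highest, while T and B cell markers had other orders. The summed level of 7 T cell markers was 38.3, 74.0 and 2.11 CPM in triple replicates 1, 2 and 3, 5.95, 3.93 and 30.4 CPM in the dual tumors, 4.80, 1.70 and 1.48 CPM in the RT tumors and 2.20, 1.91 and 3.80 CPM in the IPW-5371 tumors, against 1.61, 0.409 and 0.973 CPM in the Sham tumors. All 7 were tested and all 7 were above Sham in both groups. Triple replicate 1 had the second highest T cell sum with a member score of 0.05, and Cd3e had 0 counts in Sham replicates 2 and 3. The 5 NK cell markers summed to 2.80, 33.2 and 1.27 CPM in the triple tumors and 3.42, 2.44 and 45.5 CPM in the dual tumors, against 0.239, 0 and 0.130 CPM in Sham, where Ncr1 had 0 counts in all 3 tumors, and 2 of the 5 were tested. The 6 macrophage markers, all tested and all above Sham in both groups, summed to 339, 2041 and 959 CPM in the triple tumors, 499.8, 449 and 1665 CPM in the dual tumors, 853, 236 and 131 CPM in the RT tumors and 333, 311 and 564 CPM in the IPW-5371 tumors, against 360.0, 105 and 173 CPM in Sham. Their highest tumors were again triple replicate 2 and dual replicate 3, then triple replicate 3 and RT replicate 1. The 6 dendritic cell markers summed to 19.1, 42.6 and 9.29 CPM in the triple tumors and 11.2, 6.37 and 23.1 CPM in the dual tumors, against 2.33, 1.88 and 2.85 CPM in Sham. Siglech, a marker of plasmacytoid dendritic cells, which can secrete interferon alpha, measured 2.73, 6.06 and 0.0844 CPM in the triple tumors and 1.34, 0.393 and 0.767 CPM in the dual tumors, against 0.0597, 0.0819 and 0.195 CPM in Sham. Those Sham values were 1, 1 and 3 counts. Of the 5 plasmacytoid dendritic cell markers tested, of 6 listed, 4 were above Sham in each group, as were all 4 neutrophil markers tested of 5 and the 1 B cell marker tested of 4. The plasmacytoid marker below Sham was Ly6d, with log2 fold changes of -0.73 in the triple group and -0.37 in the dual group. The 4 B cell markers summed to 34.9, 3.68 and 0.675 CPM in the triple tumors and 3.20, 0.865 and 1.71 CPM in the dual tumors, against 1.37, 0.655 and 2.07 CPM in Sham, so that triple replicate 1, with a member score of 0.05, was far above the rest. In these bulk libraries more cells of a type and more RNA per cell cannot be told apart, and the part of these cells in the levels of the members was not tested.

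**Figure D5:**
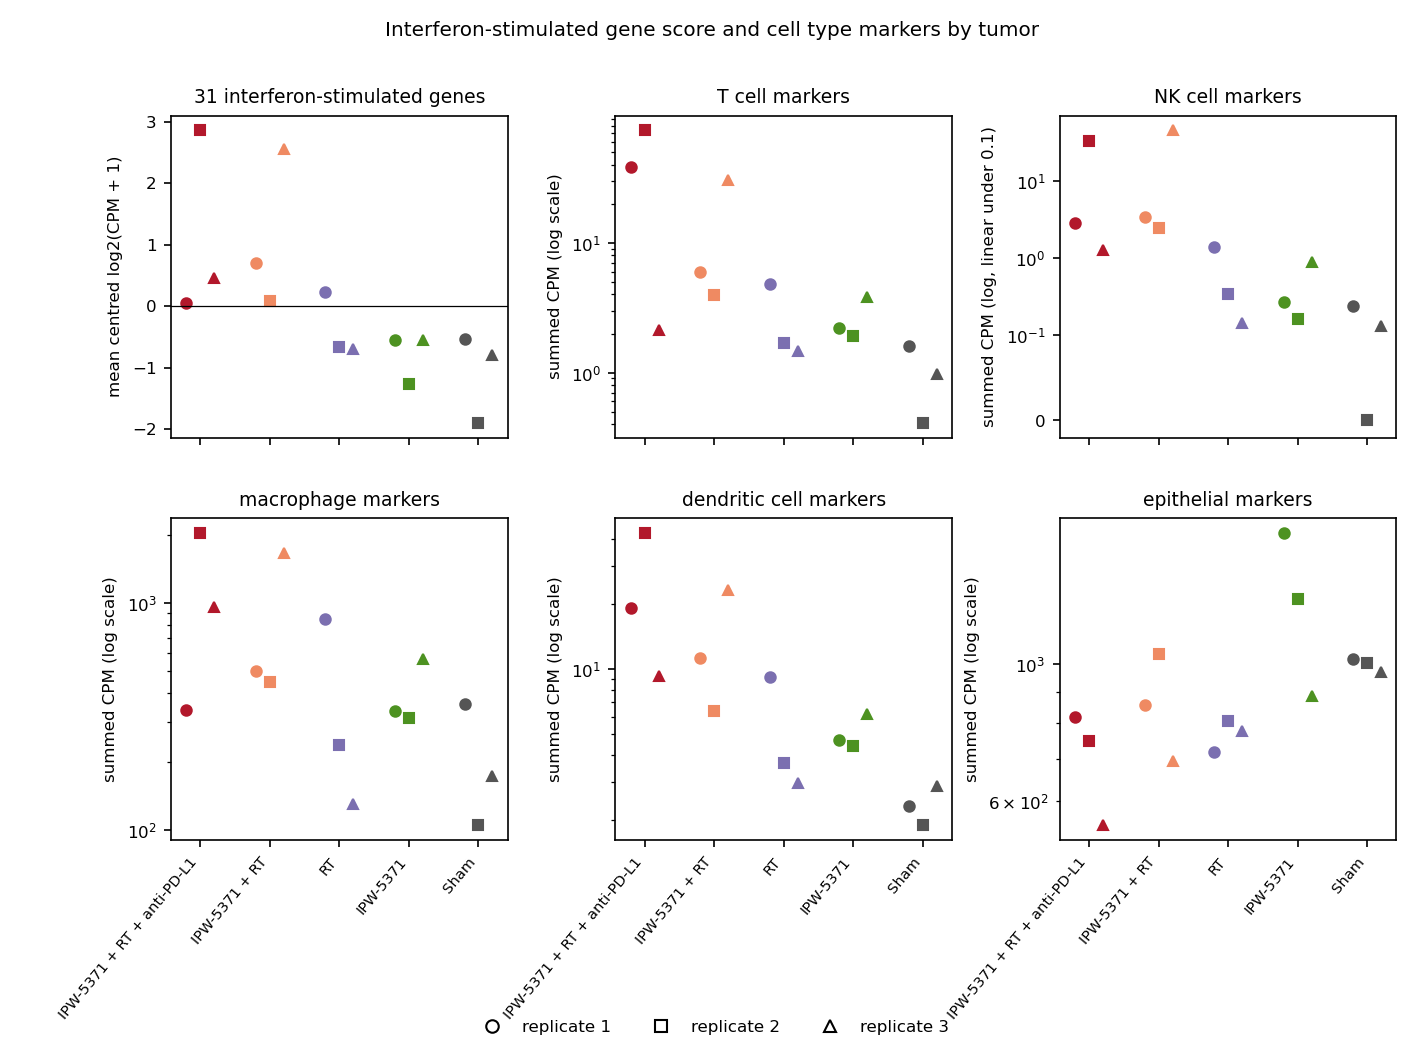
Score of the 31 members (mean centred log2(CPM + 1)) and summed CPM of markers of T cells, NK cells, macrophages, dendritic cells and epithelium in each tumor, by group (log axes for the sums, linear under 0.1 for NK cells). Triple replicate 2 (74.0 CPM of T cell markers) and dual replicate 3 (30.4) are high in the first 5 panels, and triple replicate 1 (38.3) is high for T cell markers with a score of 0.05.

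The epithelial sum was below Sham in both tumors with high members and in all RT tumors, and the fibroblast markers differed among themselves. The 6 epithelial markers summed to 820.3, 749 and 547 CPM in the triple tumors and 856, 1038 and 694 CPM in the dual tumors, against 1016, 1001 and 969 CPM in Sham. They summed to 719, 808 and 777 CPM in the RT tumors and 1629, 1271 and 885 CPM in the IPW-5371 tumors. Both high tumors lay below all Sham tumors, as did the other triple tumors, dual replicate 1, all RT tumors and IPW-5371 replicate 3. Krt5 had the most counts of the 6 in every tumor. Of the 6 markers 2 were above Sham in the triple group and 3 in the dual group, with median log2 fold changes of -0.16 and -0.09. The 4 fibroblast markers summed to 768, 3881 and 3585 CPM in the triple tumors, 1213, 766 and 2046 CPM in the dual tumors and 4471, 576 and 445 CPM in the RT tumors, against 4455, 252 and 303 CPM in Sham, and were highest in RT replicate 1 and Sham replicate 1, whose member scores were 0.23 and -0.53. That sum is mostly Col1a1, a collagen gene, which had 677, 3400 and 3285 CPM in the triple tumors and 1087, 691 and 1852 CPM in the dual tumors, against 4316, 218 and 278 CPM in Sham. Dcn and Lum, which encode proteoglycans of the matrix, were highest in triple replicate 2, as most members were, and Dcn measured 54.0, 282 and 137 CPM in the triple tumors and 54.8, 32.6 and 101 CPM in the dual tumors, against 65.0, 1.31 and 4.02 CPM in Sham. Unscaled Lum counts were 161, 1323 and 443 in the triple tumors and 249, 105 and 175 in the dual tumors, against 237, 10 and 21 in Sham. Lum in dual replicate 3 lay below dual replicate 1, triple replicate 3 and RT replicate 1. Pdgfra, a receptor of fibroblasts, was highest in triple replicates 3 and 2. All 4 fibroblast markers were above Sham in the triple group (median 1.98) and 3 of 4 in the dual group (0.95), with 0 called, and their part in the levels of the members was not tested. Of 4 endothelial markers 3 were above Sham in each group, with medians of 0.53 in the triple group and 0.09 in the dual group. Of the Sham tumors, replicate 2 had the lowest member score and also the lowest macrophage, T cell and NK cell sums, values whose part in the Sham spread was not tested.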

How the data were processed

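Bulk RNA from 15 tumors and 1 internal reference library was rRNA-depleted and built into libraries with the NEBNext Ultra II kit, per the labels' protocols. The authors deposited 1 table of read counts per Entrez gene, whole and unscaled, with subread in its column names and build GRCm38 in the submitters' processing notes. Aligner settings and strand handling are not given in the sources used here.

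All 15 tumors entered 1 edgeR 4.0.16 quasi-likelihood fit (R 4.3.3) with a mean per group, TMM scaling (factors 0.919 to 1.05), filterByExpr on low counts and 10 residual degrees of freedom. The threshold was a Benjamini-Hochberg adjusted p of 0.05 over 16017 genes, and the median total count was 13302488. CPM are TMM-scaled, the SE of a log2 fold change comes from its F statistic, and the code was tested on simulated counts. DESeq2 1.42.0, limma-voom (limma 3.58.1) and other settings were alternatives. No 2 tumors of a group were copies, and p-values measure the spread between tumors.

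All members are accounted for. Those given in every tumor stand for a role, and others are named as the 3 smallest unadjusted p values, the lowest or the highest fold change of a comparison. The members and all lists (ligands, receptors, sensors, regulators, other interferon-stimulated genes and markers of immune, stromal and epithelial cells) were chosen with earlier results of these data known. A gene of the receptor and JAK-STAT list is not reported here. Of 27179 identifiers, 25275 matched a symbol.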

Additional observations from a re-analysis of the deposited data

Results flagged for a closer look

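The internal reference control, 1 library that the labels put in no treatment group and that entered no comparison, had levels of most members above those of the Sham tumors. On unscaled CPM, 28 of 31 members were higher in it than in the highest Sham tumor, where 46.4% of all 16017 genes were, and 0 were higher than in the highest of the 15 tumors, where 29.2% of all genes were. The median ratio to the highest Sham tumor was 2.49, and the ratios ran from 0.514 to 7.11. The exceptions were Oasl1, Isg15 and Ifih1. The labels do not say what the library was made from beyond the tissue and genotype, and the difference was not tested.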

How the results depend on the processing

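By edgeR and limma-voom 0 members passed in any comparison under any alternative, so no call was lost or turned. DESeq2 called 18 members in the triple group against Sham, 15 in the dual group against Sham, 16 in the pooled inhibitor contrast, 22 in the pooled radiation contrast and 21 for any difference, and the cause was not tested. With the library code as a term, medians were 1.01 for triple against Sham, -1.54 for RT against Sham, 4.45 for dual against RT, -1.73 for triple against dual, 0.76 for radiation and 4.00 for the interaction, the code effect being estimated from the triple group alone. There it sets triple replicates 2 and 3 against triple replicate 1, so these medians also carry the high values of triple replicate 2. Without the 2 resubmitted libraries they were 1.43 for dual against Sham, 0.84 against RT, 1.52 against IPW-5371, 1.41 for triple against dual and 0.53 for the interaction. Without triple replicate 2 and dual replicate 3, an alternative added after seeing the data, they were 1.32 and 1.42 for triple and dual against Sham, 0.86 for dual against RT, 1.26 for dual against IPW-5371, 0.65 for the inhibitor and 0.35 for the interaction. Leaving out each tumor in turn gave 1.31 to 3.37 for triple against Sham, 1.42 to 3.25 for dual against Sham, 0.25 to 1.16 for RT against Sham, -0.09 to 0.60 for IPW-5371 against Sham, 0.85 to 2.61 for dual against RT, 1.24 to 2.99 for dual against IPW-5371, -1.38 to 1.41 for triple against dual, 1.15 to 1.96 for the inhibitor, 1.49 to 2.29 for radiation and 0.34 to 2.25 for the interaction.

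With the replicate number as a block the medians were 3.23 for triple and 2.78 for dual against Sham, and 0 members passed. Deviations of tumors with the same number correlated from -0.67 to 0.72 over 30 pairs (mean -0.03), so the numbers do not pair the tumors. Low counts limit Oas3, with 2 to 24 counts in Sham tumors, Epsti1, with 1 to 11, and the ligands. Other members were also low in Sham replicate 2, among them Ifit3 with 3 counts, Mx1 with 4, Mx2 and Zbp1 with 5 and Oas2 with 6.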

Other observations

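Within the RT group the order of tumors differed between members. RT replicate 1 exceeded RT replicates 2 and 3 for 25 of 31 members, the exceptions being Isg15, Ifih1, Oasl1, Mx2, Xaf1 and Ifi35, which were picked out after their values were seen. In RT replicates 1, 2 and 3, Isg15 measured 10.9, 5.97 and 20.0 CPM and Oasl1 10.7, 6.45 and 14.5 CPM. Mx2 measured 2.43, 1.90 and 2.88 CPM and Ifih1 28.4, 22.2 and 32.5 CPM, with replicate 3 the highest for each of these 4. Xaf1 was also highest in RT replicate 3, with unscaled counts of 227, 198 and 247. Ifit3, by contrast, measured 5.36, 1.22 and 0.211 CPM, with replicate 3 the lowest on only 3 counts. In the triple group replicate 3 exceeded replicate 1 for 25 members, and Isg15, Ifih1, Mx2, Xaf1 and Ifi35 were again among the exceptions, with Mx1. The 4 genes Isg15, Ifih1, Oasl1 and Mx2 had the lowest log2 fold changes of all members in IPW-5371 against Sham, -1.17, -0.89, -0.81 and -0.69, none of which passed the test. The other RT exceptions, Xaf1 and Ifi35, were not lower in IPW-5371 than in Sham. Isg15, Ifih1 and Oasl1 were also the 3 members that the internal reference library did not hold above all Sham tumors. Both comparisons use the same 3 Sham tumors and are not independent of each other.

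Spread within groups also differed from group to group, which was not tested. The triple and dual values include triple replicate 2 and dual replicate 3. The coefficient of variation over 3 tumors had a median over the 31 members of 118% in the triple group, 96.0% in the dual group, 49.0% in the RT group and 42.3% in the IPW-5371 group, against 65.8% in Sham. By group mean the triple group was highest for 27 members and the dual group for 4, and by group median the dual group was highest for 22 and the triple group for 9.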
